A study of Mus musculus with 6 samples.

Results

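Wnt pathway genes were examined on single-colour arrays of whole E14.5 mouse lung (E, embryonic day), 3 control and 3 mutant. The set comprised the genes of the Wnt, Fzd, Sfrp, Dkk, Rspo and Lgr families, taken by their symbols, and a fixed list of further antagonists, co-receptors, secretion factors, feedback regulators and nuclear factors. It held 68 of the 19938 genes measured, each represented by the feature with the highest mean over the 6 arrays. All 68 entered the test, since no filter on dim genes was applied. Tcf7, which the list also names, was not analysed here. The symbol pattern also took in Fzd10os, a transcript from the opposite strand next to Fzd10, which is no receptor.

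The study asked what the forkhead factors Foxp1, Foxp2 and Foxp4 contribute to the identity of the lung endoderm. Both groups carried Shh-Cre, in which regulatory sequence of Shh drives Cre recombinase, so that deletion takes place in the lung epithelium and not in the mesenchyme that whole lung also contains. The mutants had floxed Foxp1, Foxp2 and Foxp4 alleles (flox/flox) in addition, and the controls had Shh-Cre alone. The genotype label of the mutants repeats Foxp1 and lacks Foxp2, and the design text ends the name of the mutant in DKO; Foxp2 is taken here from the title of the series. All 6 lungs were on a mixed C57BL/6 and 129X1 background, and the design text speaks of 3 embryos per genotype. The numbers 1 to 3 of control and mutant arrays come from their titles, and values are given in that order.

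Wnt ligands are lipid-modified proteins that need the acyltransferase Porcn and the carrier Wls to leave the cell. They bind Frizzled receptors, with Lrp5 or Lrp6 as co-receptor for the beta-catenin branch, whose nuclear partners are Lef1 and the Tcf factors, or with Ror receptors for other branches. R-spondins bind Lgr receptors and keep the ubiquitin ligases Rnf43 and Znrf3 from removing Frizzleds, while Sfrp, Frzb, Dkk, Wif1, Notum and Apcdd1 restrain the pathway outside the cell or at its surface. In the embryonic lung, Wnt2 and Wnt2b from the mesenchyme specify the lung endoderm, and Wnt7b is a ligand of the epithelium.

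The targeted genes give a limited check of the genotype, since the mesenchyme keeps its alleles and whether a feature covers the deleted exons was not examined. Foxp2 and Foxp4 were lower in the mutants, with log2 differences of -0.95 and -0.64 (limma adjusted p 4.75e-05 and 0.00591), and Foxp1 was at -0.31 (adjusted p = 0.0661). Of 7 epithelial markers 5 fell, and the summed signal of the list was 0.604 to 0.733 of the control mean in the mutants. All 5 smooth muscle markers fell, with a summed signal of 0.411 to 0.501 of the control mean. Of 4 macrophage markers 3 rose, with a summed signal of 1.21 to 1.42 of the control mean. Mutant 1 stood apart in the mean deviation of 8 heart muscle markers from the control mean, at 1.27 log2 units against -0.49 and -0.58 in mutants 2 and 3. Not every marker did so: Myl2 read 5.70 in mutant 1, against 5.57 to 5.73 in the controls. Fewer cells of a type and less RNA per cell cannot be told apart in whole lung, and the part of these shifts in the results that follow was not tested.

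**Figure D1:**
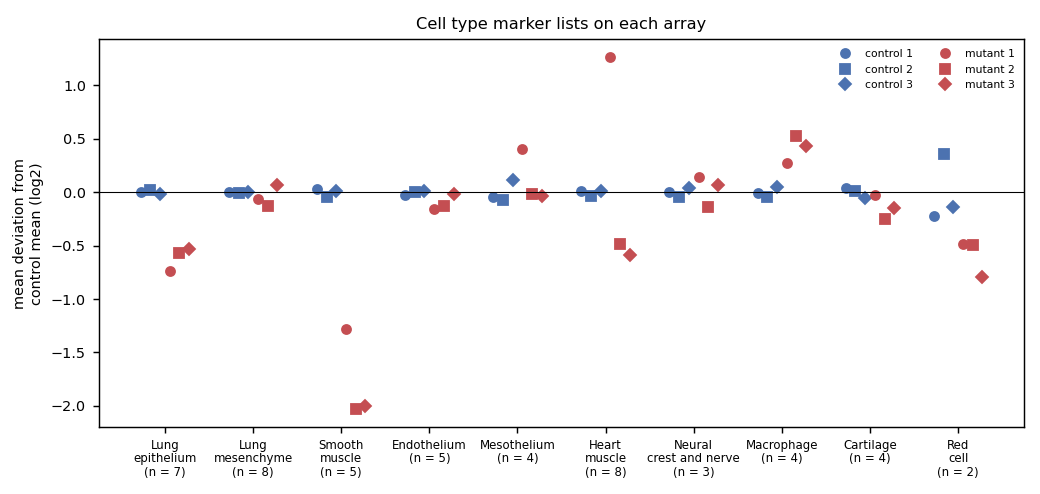
Mean deviation of each array from the control mean, in log2 units, over the marker genes of 10 cell types (n genes each; circle, square and diamond are replicates 1, 2 and 3 of control in blue and mutant in red). The smooth muscle and epithelial lists lie below 0 in all 3 mutants, and the heart muscle list is at 1.27 in mutant 1 alone.

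The sequences upstream of the start site are shown for the genes with the largest changes for which RefSeq (GRCm38.p6) gave an entry, because these are the genes on which the findings below rest. Such an entry existed for 44 of the 68 genes and for 8 of the 15 that passed the threshold. Frzb (chr2:80447397-80447646, minus strand), Tspan12 (chr6:21852534-21852783, minus strand), Lgr6 (chr1:135105277-135105526, minus strand) and Lgr4 (chr2:109917397-109917646, plus strand) are printed 5′ to 3′ over the 250 bases before the listed start. Capitals mark a match on either strand to a forkhead word (TGTTTAC besides TGTTTAT, as well as TATTTAC besides TATTTAT) or to a TCF/LEF word (CTTTGAA besides CTTTGAT, as well as CTTTGTA besides CTTTGTT).
Frzb: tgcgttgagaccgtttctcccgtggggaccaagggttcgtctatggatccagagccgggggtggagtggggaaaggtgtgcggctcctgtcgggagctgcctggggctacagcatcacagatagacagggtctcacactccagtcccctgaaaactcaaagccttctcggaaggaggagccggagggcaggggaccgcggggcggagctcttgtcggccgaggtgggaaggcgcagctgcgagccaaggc
Tspan12: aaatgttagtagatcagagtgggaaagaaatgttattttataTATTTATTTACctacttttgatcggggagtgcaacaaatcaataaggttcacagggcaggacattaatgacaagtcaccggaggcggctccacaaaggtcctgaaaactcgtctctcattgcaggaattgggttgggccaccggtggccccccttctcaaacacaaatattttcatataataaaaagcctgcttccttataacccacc
Lgr6: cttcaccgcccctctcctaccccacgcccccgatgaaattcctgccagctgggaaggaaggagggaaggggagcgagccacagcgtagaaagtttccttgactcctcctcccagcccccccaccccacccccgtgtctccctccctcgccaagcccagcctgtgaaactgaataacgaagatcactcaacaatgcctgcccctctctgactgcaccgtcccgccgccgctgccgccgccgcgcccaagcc
Lgr4: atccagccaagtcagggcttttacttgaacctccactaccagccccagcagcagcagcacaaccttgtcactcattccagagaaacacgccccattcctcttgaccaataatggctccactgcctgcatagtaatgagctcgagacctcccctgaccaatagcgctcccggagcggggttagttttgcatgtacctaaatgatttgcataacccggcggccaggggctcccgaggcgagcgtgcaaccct
Only the Tspan12 window of these 4 held a match, TATTTAT overlapping TATTTAC on the gene's own strand, which begin 208 and 204 bases before the start. A forkhead word occurred in 13.6% of all 32851 promoter windows of this length and a TCF/LEF word in 14.8%. Counted by gene, 4 of the 44 Wnt pathway genes with an entry had a forkhead word (9.09%, against 15.4% of all 27025 genes with an entry), and 7 had a TCF/LEF word (15.9%, against 16.8%).

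Of the 68 genes, 9 were higher in the mutants, 6 were lower and 53 did not pass the threshold, a limma adjusted p under 0.05 over all genes tested. The rises were those of Frzb, Tspan12, Notum, Lgr4, Rspo2, Fzd10, Lef1, Dkk2 and Apcdd1, and the falls those of Lgr6, Wnt5a, Fzd6, Kremen1, Fzd5 and Fzd2. The share that passed was 22.1%, where 7.66% of all genes tested passed (3.84% of all genes higher and 3.83% lower). With a fold of at least 1.5 also required, 8 of the 68 were left, against 2.75% of all genes. All genes included more dim ones: 8353 of the 19938 read below the array median in controls, against 18 of the 68. The shares of all genes given here and below are thus not those of genes of like signal, which were not computed. The median log2 difference was -0.03 over the 68 genes and -0.01 over all genes, and the median size of the difference without its sign was 0.14 and 0.077.

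The genes that passed are given by their role in the pathway. Among 20 ligands 1 passed, against 5 of 15 receptors and co-receptors, 3 of 9 genes of the R-spondin axis, 5 of 14 antagonists and 1 of 7 intracellular feedback and nuclear genes. The small numbers in each role carry no test of a difference between roles. Mutant values lay wholly above the control values in 12 of the 68 genes (13.4% of all genes tested did so) and wholly below them in 15 (12.6% of all genes). These 27 genes (39.7%, against 25.9% of all genes) included all 15 that passed.

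**Figure D2:**
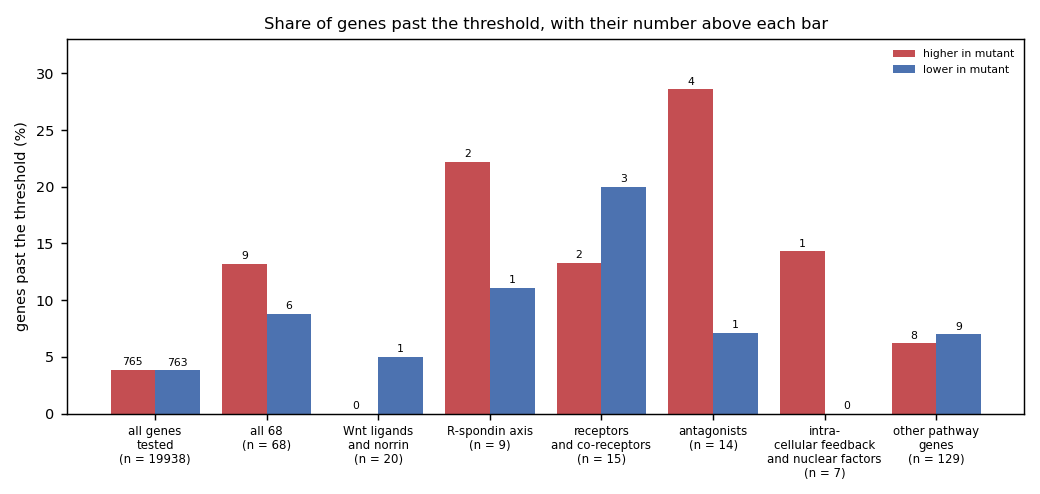
Percent of genes past the threshold (y axis) that were higher (red) or lower (blue) in mutant lungs, for all genes tested, all 68 Wnt pathway genes, their roles with at least 7 genes, and 129 other pathway genes; the number above a bar counts its genes. The antagonists show 4 rises and 1 fall, and the ligands 0 rises and 1 fall.

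**Figure D3:**
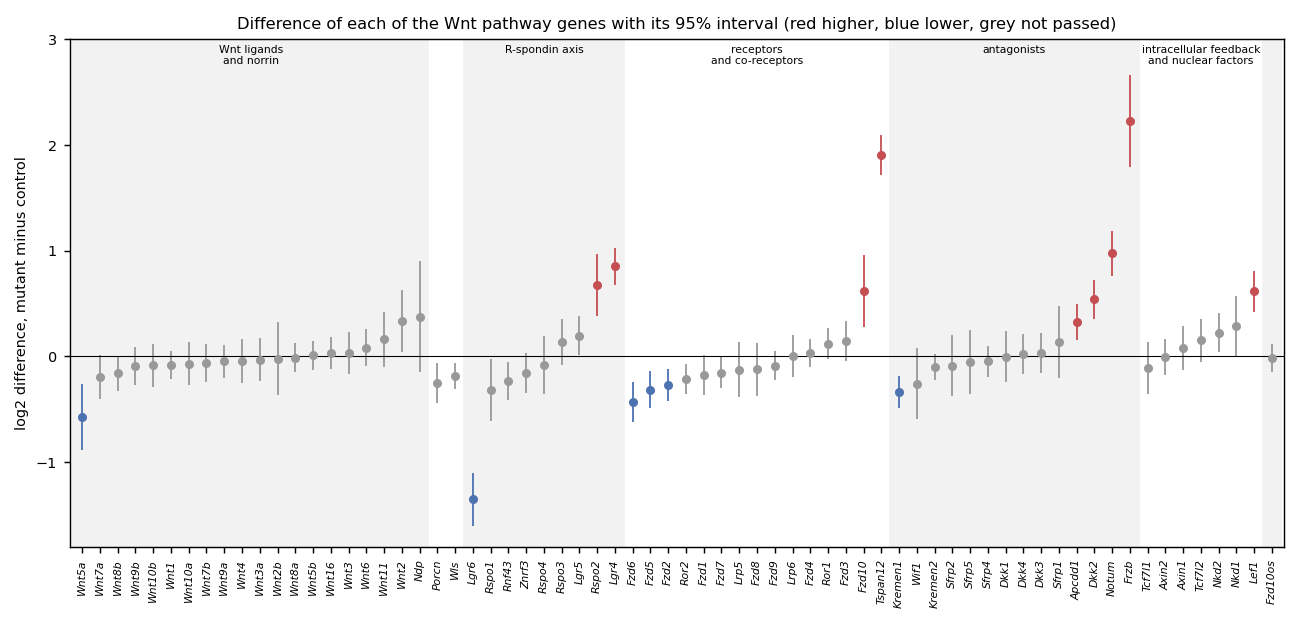
Log2 difference, mutant minus control, of each of the 68 genes with its 95% interval from the moderated fit (y axis), grouped by role and ordered within it. Most ligands lie near 0, while Frzb, Tspan12 and Lgr6 stand farthest from it.

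Of the 20 ligand genes, Wnt5a alone passed, and it fell. Wnt5a (feature 10413482), a ligand of the non-canonical branches, read 8.50, 8.55 and 8.46 in the controls against 7.97, 7.61 and 8.21 in the mutants. All mutant values lay below the controls, and mutant 2 was the lowest. The log2 difference was -0.57 ± 0.13 (SE, n = 3 per group), with a limma adjusted p of 0.0395. The call is a weak one, since the adjusted p was 0.130, 0.138 and 0.119 without controls 1, 2 and 3, 0.0663 without mutant 1, and 0.0512 with embryo sex as a covariate.

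Wnt2, Ndp and Wnt7a had the largest differences among those that did not pass. Wnt2 read 10.14, 10.21 and 10.19 in the controls against 10.53, 10.79 and 10.22 in the mutants, a difference of 0.33 ± 0.13 (limma adjusted p = 0.190). The mutant values of Wnt2 lay above every control, but mutant 3 by only a narrow margin. Ndp, which encodes norrin, a ligand of Fzd4 that is no Wnt protein, read 7.51, 7.28 and 7.18 in the controls against 7.20, 8.22 and 7.69 in the mutants, so the groups overlapped (0.38 ± 0.23, adjusted p = 0.429). Wnt7a was at -0.19 with all values at or below 5.77. That value is the highest reading of Y-linked genes in female embryos or of Xist in males, here taken as the level of a silent gene. Wnt1 and Wnt8b, chosen after their values were seen, also stayed at or below that level in all 6 arrays.

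Wnt7b and Wnt2b, ligands with known roles in lung, were chosen after their values were seen. Wnt7b read 8.78, 8.77 and 8.75 in the controls against 8.58, 8.68 and 8.86 in the mutants, a difference of -0.06 with a 95% interval from -0.24 to 0.12. Wnt2b was at -0.02, with a wider interval of -0.37 to 0.32 and controls spread from 7.80 to 8.46. The groups overlapped for both genes. The 19 ligand genes that did not pass had adjusted p from 0.190 to 0.964, and 9 of them read below the array median in controls. Wnt4, the one gene here with several features, was at -0.03 and -0.04 on its 2 features, and was likewise chosen after its values were seen.

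Both genes needed to make and release Wnt proteins read lower in the mutants without passing. Wls, the carrier of lipidated Wnt proteins, read 10.60, 10.59 and 10.60 in the controls against 10.37, 10.44 and 10.42 in the mutants, a difference of -0.19 ± 0.05 (limma adjusted p = 0.0769). With a mean-variance trend and robust moderation the adjusted p of Wls was 0.0481, the only alternative in which it passed. In the 6 fits that left out an array its adjusted p ran from 0.0592 to 0.236. Porcn, the acyltransferase, was at -0.25 ± 0.08 (adjusted p = 0.131). Mutant values of each lay wholly below the controls.

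In the R-spondin axis the receptor genes Lgr4 and Lgr6 changed in opposite directions. Lgr6 (feature 10357965) read 7.81, 8.05 and 8.04 in the controls against 6.76, 6.40 and 6.69 in the mutants. Every mutant was more than 1 log2 unit below every control, and the log2 difference was -1.35 with an SE of 0.11, 2.55-fold (limma adjusted p = 0.000299). Lgr4 (feature 10474419), a related receptor, went the other way, with 8.26, 8.12 and 8.05 in the controls against 8.90, 9.04 and 9.06 in the mutants. Its values were tightly grouped in both genotypes, and the difference was 0.86 ± 0.08 or 1.81-fold (adjusted p = 0.000459). Lgr5, the third receptor of the family, was at 0.20 ± 0.08 and did not pass (adjusted p = 0.225).

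Among the R-spondins, only Rspo2 passed the threshold. Rspo2 (feature 10428388), a secreted ligand of the Lgr receptors, read 8.29, 7.93 and 8.04 in the controls against 8.76, 8.98 and 8.55 in the mutants. The groups did not overlap, and mutant 3 was the lowest of the mutants. The difference was 0.68 ± 0.13 or 1.60-fold (limma adjusted p = 0.0159), and it did not pass when control 2 (0.0673) or control 3 (0.0748) was left out. Rspo1 was at -0.32 ± 0.13 (adjusted p = 0.204), with mutant 2 at 8.44 against 8.84 and 8.98 in the other mutants. Rspo3 was at 0.13 and Rspo4 at -0.08, chosen after their values were seen. The ubiquitin ligase gene Rnf43 was at -0.23 with mutants wholly below controls (adjusted p = 0.134), and Znrf3, also chosen after its value was seen, at -0.16 (adjusted p = 0.356).

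Lgr6 moved beside the smooth muscle markers. Of the 5 markers on that list, Acta2 was at -0.69, Tagln at -1.41, Actg2 at -1.99, Cnn1 at -2.21 and Myh11 at -2.57. Lgr6 read 6.76, 6.40 and 6.69 in mutants 1, 2 and 3. The mean deviation of the smooth muscle list was -1.28, -2.03 and -2.00 there, nearly level in mutants 2 and 3. Single markers differed in order: Tagln and Actg2 were lowest in mutant 3, and Acta2, Myh11 and Cnn1 in mutant 2. The part of smooth muscle RNA in the Lgr6 result was not tested. Mesenchymal markers gave no common direction, with 1 of 8 higher, 1 lower and a summed signal of 0.910 to 1.04 of the control mean.

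Tspan12 was the gene of the set with the smallest adjusted p. Tspan12 (array feature 10543306), a tetraspanin that strengthens norrin signalling through Fzd4, read 8.46, 8.26 and 8.44 in the controls against 10.26, 10.43 and 10.20 in the mutants. The arrays of each genotype lay close together, and the gap between genotypes was several times wider than either spread. The difference was 1.91 ± 0.08, with n = 3 per group, or 3.75-fold (limma adjusted p = 1.59e-05). Of its partners, Fzd4 was at 0.03 with a 95% interval from -0.10 to 0.16, Lrp5 at -0.13 (interval -0.39 to 0.13), and Ndp did not pass. Fzd4 and Lrp5 were chosen after their values were seen.

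Of the 10 Frizzled receptor genes 4 passed, 3 of them lower and 1 higher. Fzd6 went from 8.36 ± 0.08 (SD, n = 3) to 7.93 ± 0.13 (-0.43, limma adjusted p = 0.0162), Fzd5 from 7.41 ± 0.04 to 7.09 ± 0.13 (-0.31, adjusted p = 0.0453) and Fzd2 from 10.14 ± 0.07 to 9.88 ± 0.08 (-0.27, adjusted p = 0.0494). Fzd10 (feature 10525955) read 7.12, 6.83 and 7.00 in the controls against 7.29, 7.62 and 7.90 in the mutants. Its mutant values were all above the controls but spread widely, and the difference was 0.62 ± 0.15 (adjusted p = 0.0416). The neighbouring transcript Fzd10os was at -0.01 with overlapping groups (95% interval -0.15 to 0.12).

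These Frizzled calls were close to the threshold. Fzd6 had adjusted p of 0.0743 and 0.0810 without controls 2 and 3. Fzd2, Fzd5 and Fzd10 each passed in only 1 of the 6 fits that left out an array, with adjusted p up to 0.177, 0.162 and 0.153. Centring each array on its median ended the calls of Fzd2 (adjusted p = 0.0729) and Fzd10 (0.0557), and a second quantile normalization that of Fzd10 (0.0630). Fzd5 did not pass with a variance trend and robust moderation (0.0598). Testing every feature on its own also ended the call of Fzd2 (0.0529), and embryo sex as a covariate ended the calls of Fzd2 (0.0822) and Fzd5 (0.0811).

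The other receptors did not pass. Ror2, a receptor for Wnt5a, read 9.49, 9.32 and 9.35 in the controls against 9.16, 9.19 and 9.16 in the mutants, so that every mutant lay below every control (-0.21 ± 0.06, limma adjusted p = 0.0854). Ror1, its relative, was at 0.12, and was chosen after its value was seen. Fzd1 (-0.18) and Fzd7 (-0.16) had adjusted p of 0.294 and 0.220. Lrp6 was at 0.00 with a 95% interval from -0.19 to 0.20, also chosen after its value was seen. The falls of Fzd5 and Fzd6 stand beside those of the epithelial markers Nkx2-1 (-0.88), Foxa2 (-0.94), Krt8 (-1.03), Cldn6 (-0.48) and Epcam (-0.33), while the epithelial genes Cdh1 (-0.19) and Krt18 (-0.44) did not pass. Mutant 1 had the lowest mean deviation of the epithelial list (-0.74, against -0.56 and -0.53 in mutants 2 and 3). Single markers differed in order: Nkx2-1, Krt8, Krt18, Cldn6 and Cdh1 were lowest in mutant 1, Epcam in mutant 2 and Foxa2 in mutant 3. Fzd5 (7.21, 6.95 and 7.12) and Fzd6 (8.04, 7.78 and 7.97) were highest in mutant 1 among the mutants. The part of epithelial RNA in the receptor results was not tested.

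**Figure D4:**
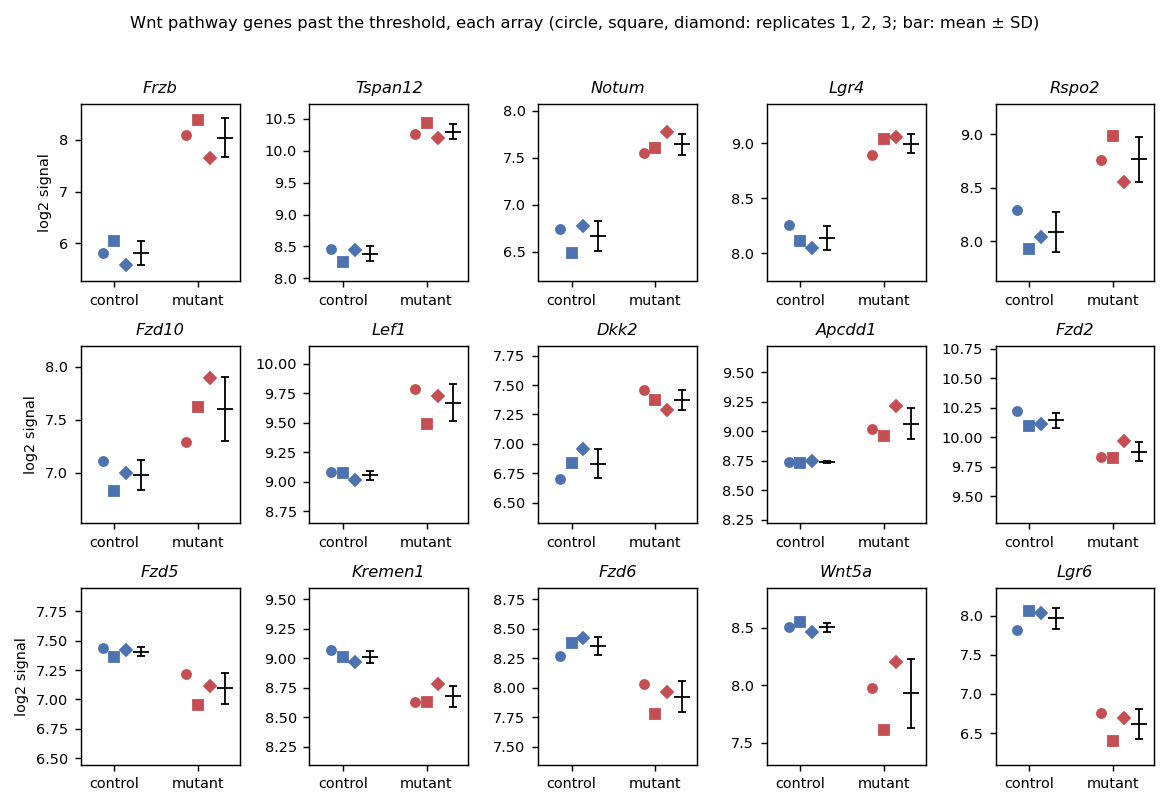
Log2 signal on each array (y axis) of the 15 genes that passed the threshold, with control replicates in blue, mutant replicates in red and a black bar for the group mean ± SD (n = 3); each panel has its own scale. The groups are separate in all 15 panels, widely so for Frzb, Tspan12 and Lgr6 and narrowly for Fzd2, Fzd5 and Fzd10.

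Of the antagonists, Frzb, Notum, Dkk2 and Apcdd1 rose and Kremen1 fell. Frzb (feature 10484307), a secreted protein with a Frizzled-like domain that binds Wnt ligands, read 5.81, 6.05 and 5.57 in the controls against 8.09, 8.38 and 7.64 in the mutants. The controls lay about the level of silent genes (5.77), so the change is a lower bound. The difference was 2.23 ± 0.19 (SE, n = 3 per group), at least 4.68-fold, with a limma adjusted p of 0.000373. The related genes Sfrp1 (0.14), Sfrp2 (-0.09), Sfrp4 (-0.05) and Sfrp5 (-0.06) did not pass, the last 3 being chosen after their values were seen. Sfrp1 spread widely among the mutants, at 10.79, 10.48 and 10.15, and its difference turned to -0.024 without mutant 1.

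Notum and Dkk2 act on different steps. Notum (feature 10393904), an enzyme that removes the lipid from Wnt proteins, read 6.74, 6.49 and 6.77 in the controls against 7.55, 7.61 and 7.77 in the mutants. The groups were far apart relative to their spread, with a difference of 0.97 ± 0.09 or 1.96-fold (limma adjusted p = 0.000677). Dkk2 (feature 10496125), which binds Lrp5 and Lrp6, read 6.71, 6.84 and 6.95 in the controls against 7.46, 7.37 and 7.29 in the mutants, again without overlap (0.54 ± 0.08, adjusted p = 0.00524). The paralogues Dkk1, Dkk3 and Dkk4 were at -0.00, 0.03 and 0.02 and did not pass, and were chosen after their values were seen.

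Kremen1, a membrane receptor for Dkk proteins, fell from 9.01 ± 0.05 (SD, n = 3) to 8.68 ± 0.09 (-0.34, limma adjusted p = 0.0186). Its call ended without control 1, 2 or 3 (adjusted p 0.0852, 0.0779 and 0.0592). Apcdd1, a membrane glycoprotein that inhibits Wnt signalling, rose from 8.74 ± 0.01 to 9.06 ± 0.13 (0.33, adjusted p = 0.0350), and passed in only 1 of the 6 fits that left out an array, with an adjusted p up to 0.127. It did not pass after centring (0.0643) or a second quantile normalization (0.0588). Wif1, a secreted Wnt-binding protein, was at -0.26 ± 0.15 with overlapping groups (adjusted p = 0.397), and Kremen2 at -0.10.

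Of the 7 intracellular feedback and nuclear genes, Lef1 alone passed. Lef1 (feature 10496091), the nuclear partner of beta-catenin that is itself a target of the pathway, read 9.08, 9.07 and 9.01 in the controls against 9.79, 9.49 and 9.73 in the mutants. The controls were tightly grouped and every mutant lay above them, a difference of 0.61 ± 0.08 or 1.53-fold (limma adjusted p = 0.00365). Axin2, a scaffold of the beta-catenin destruction complex and a widely used target gene, read 9.06, 9.01 and 8.98 in the controls against 8.87, 9.10 and 9.07 in the mutants. Its groups overlapped, and the 95% interval of its difference ran from -0.17 to 0.17; Axin2 was chosen after its value was seen.

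Mutant 2 differed from the other mutants in several of these genes. Nkd1, a feedback inhibitor that binds Dishevelled, read 9.97, 9.94 and 9.90 in the controls against 10.30, 9.91 and 10.44 in the mutants (0.29 ± 0.12, limma adjusted p = 0.256). Nkd1 was thus higher in mutants 1 and 3 and at control level in mutant 2. Tcf7l2 showed the same arrangement, at 9.46, 9.17 and 9.49 in the mutants against 9.18 to 9.26 in controls (0.15, adjusted p = 0.418). Leaving out mutant 2 takes away the value that overlaps the controls, so the adjusted p of 0.00747 for Nkd1 and 0.0348 for Tcf7l2 without it are no support for a rise. Nkd2 lay higher in every mutant than in every control, by a narrow margin (0.22 ± 0.08, adjusted p = 0.156). Over the 68 genes, mutant 2 was the lowest of the 3 mutants in 40 (58.8%), where this was so for 43.3% of all genes tested.

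**Figure D5:**
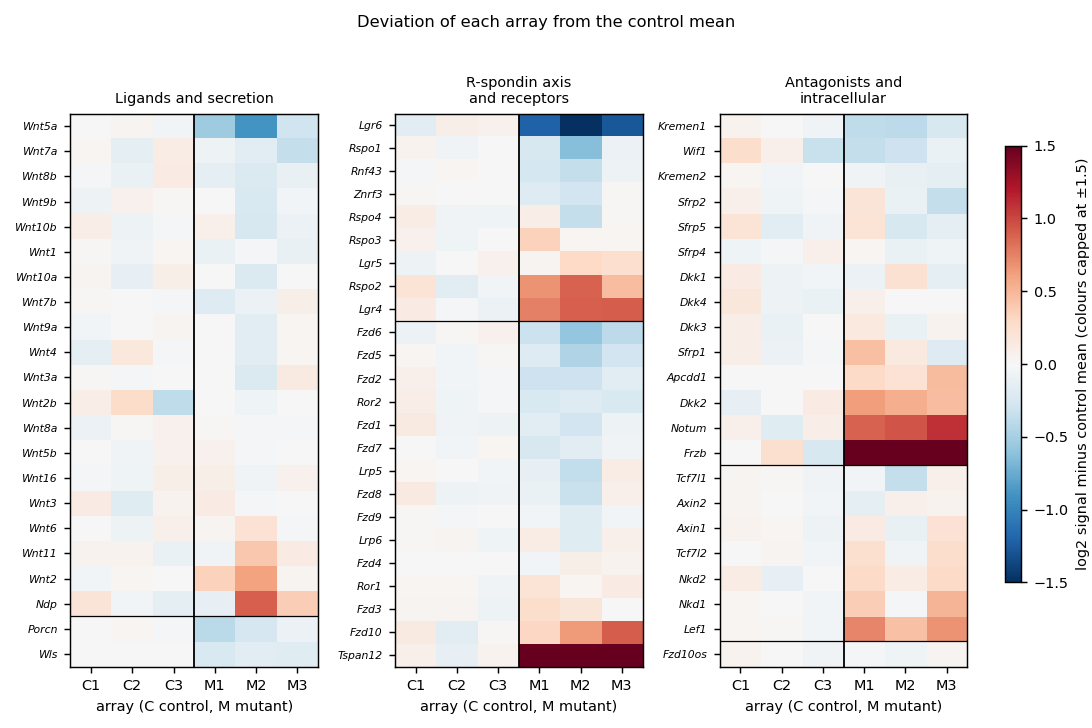
Deviation of each of the 6 arrays from the control mean, in log2 units (colour, capped at 1.5 in either direction), for the 68 genes in 3 panels by role. The rows of Frzb, Tspan12, Notum, Lgr4 and Lgr6 have one colour across all 3 mutants, while Nkd1, Tcf7l2 and Ndp differ between mutants.

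The rest of the pathway was followed in 129 further genes of 132 listed. Of these, 8 rose and 9 fell (13.2%, against 7.66% of all genes), and 112 did not pass. None of 29 genes for cytoplasmic transducers and the destruction complex, among them Ctnnb1, Apc and Gsk3b (named after their values were seen), passed in limma, and 4 of them had an unadjusted p under 0.05. Of 20 nuclear co-factors, 2 rose, the Groucho-family co-repressors Tle4 (0.62 ± 0.09, SE, adjusted p = 0.00498) and Tle1 (0.50). Of 24 genes of planar polarity and other non-canonical branches, 3 fell, the cadherins Celsr1 (-0.98 ± 0.08, adjusted p = 0.000313) and Celsr2 (-0.35) and the kinase gene Camk2d (-0.75 ± 0.12, adjusted p = 0.00781).

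Genes known as Wnt targets moved both ways. Of 30 on that list, Isl1 (1.41 ± 0.19), Twist1 (0.57 ± 0.10), Myc (0.46) and Sp5 (0.39) rose and Sox9 (-0.84 ± 0.07), Ccn1 (-0.68 ± 0.08) and Jun (-0.58) fell, with 23 that did not pass. Their limma adjusted p ranged up to 0.0311, that of Sp5. Sox9 also marks the distal lung epithelium. Twist1 did not pass without control 3 (limma adjusted p = 0.0645). Of 26 other extracellular and membrane regulators, Serpinf1 (0.59 ± 0.08) and Lypd6 (0.38) rose and Trabd2b (-0.54), Tnfrsf19 (-0.44) and Sdc1 (-0.37) fell. Of the other pathway genes that passed, Tle1, Celsr2, Myc, Sp5, Jun, Lypd6, Trabd2b, Tnfrsf19 and Sdc1 were named after their values were seen.

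The genomic neighbours of the changed genes were also looked at, by their order in RefSeq (GRCm38.p6). Of the 30 nearest measured protein-coding genes on either side of the 15 genes that passed, 3 passed, a share near the 7.66% of all genes. Only 1 of the 3 went in the direction of its neighbour, Angpt1 beside Rspo2 (0.33 against 0.68). Tmem132d fell (-0.60) beside Fzd10, which rose, and Cacna2d3 rose (0.33) beside Wnt5a, which fell. The neighbours of Tspan12, Kcnd2 (0.26, limma adjusted p = 0.104) and Ing3 (0.12), did not pass, nor did those of Frzb, Dnajc10 (-0.14) and Nckap1 (0.05). In 5 places 2 genes of the set adjoin each other, 4 of them Wnt ligand pairs in which neither gene passed, and the fifth Kremen1 beside Znrf3.

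Of the 15 genes, 7 passed the threshold in each of the 6 fits that left out 1 array and in every other fit tried: Frzb, Tspan12, Lgr6, Notum, Lgr4, Lef1 and Dkk2. With at least 1.5-fold also required, Dkk2 (1.45-fold) is no longer among them. Without mutant 1, the array with a high mean of the heart muscle markers, 12 of the 15 passed and Wnt5a, Fzd2 and Apcdd1 did not. Without control 1, 2 or 3, 9, 7 and 7 passed. These were 7, 6 and 6 of the 9 rises and 2, 1 and 1 of the 6 falls.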

How the data were processed

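RNA of 6 whole lungs was hybridised to single-colour Affymetrix arrays. The authors deposited log2 signals; the submitters' processing notes list RMA (robust multi-array averaging), oligo and limma, giving no versions. Such averaging compresses differences of dim genes, and no detection calls came with the signals. The number of arrays also limits the precision. Array medians lay between 6.70 and 6.79. Of 35556 features, 21789 have a single gene symbol in the platform annotation and were reduced to 19938 genes. Groups were compared by a two-sided moderated test with genotype as its only term (limma 3.58.1, run under R 4.3.3; lmFit, then eBayes; 7.96 moderated degrees of freedom) with Benjamini-Hochberg adjustment over all genes. Intervals are 95% intervals of that fit and SE its standard error. The code was tested on simulated data. The genes, lists and tests were chosen with earlier results of these data known. Named are all genes of the set past the threshold, up to 3 others per role with the largest difference, up to 4 other pathway genes per direction, and genes marked as chosen after their values were seen. Alternatives were second quantile normalization, median centring, a filter on dim genes, other feature rules, trended robust moderation, replicate block, embryo sex (Xist and Y-linked genes) and each array left out.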

Additional observations from a re-analysis of the deposited data

How the results depend on the processing

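With 1 array left out, 778 to 1745 of all genes passed, 6 to 10 of the 68 Wnt pathway genes rose, 1 to 7 fell and 10 to 20 of the 129 other pathway genes passed; the low counts were those without a control array. The falls among the 68 numbered 2 with the replicate block and 3 with embryo sex as a covariate. With at least 1.5-fold also required, 549 genes passed over all, 1 of the 68 fell and 7 of the other pathway genes passed. Same-numbered control and mutant arrays deviated from their group means with correlations of -0.069, 0.049 and 0.15, and only control 3 and mutant 3 correlated best with their own number, so the numbers were not taken to pair the samples. Arrays of 1 number do have the same embryo sex (numbers 1 and 2 female, 3 male). The block left 1137 genes over all, and Apcdd1, Kremen1, Fzd10, Fzd2, Fzd5 and Wnt5a did not pass with it (limma adjusted p 0.0533 to 0.108). With 1 array left out, the log2 difference of Sfrp1 ran from -0.024 (without mutant 1) to 0.30, and that of Fzd10os from -0.041 to 0.013, being 0.011 without control 1 and 0.013 without mutant 2. The other counts named here stayed within 1.5 times under the alternatives run. With 3 arrays per group, and 4 of the 68 genes at the level of silent genes on all arrays, a gene that did not pass is not shown to be unchanged.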
